A study of Mus musculus with 13 samples.

Results

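The genes of the TET dioxygenases (Tet1, Tet2 and Tet3) and of thymine DNA glycosylase (Tdg) were followed through ChIP-seq maps of OCT4 and SMAD3 in reprogramming fibroblasts. They are 4 of 21881 protein-coding genes with a unique symbol in the GENCODE annotation of the mouse GRCm38 (mm10) genome, and were chosen by name as members of 1 pathway, with earlier results of these data known. Each gene was taken as its annotated span plus 10 kb on each side, and every peak that shared at least 1 bp with this window was counted. All cells were mouse embryonic fibroblasts (MEFs) from 1 transgenic line with a doxycycline (dox)-inducible cassette (MKOS) for Sox2, Oct4, Klf4 and c-Myc with an mOrange reporter, placed in the Sp3 gene, an rtTA activator driven by the CAG promoter, and a GFP reporter that replaces 1 Nanog allele. All cells, including those without dox, had also been infected with a retrovirus for Smad3CA, a form of Smad3 made constitutively active by acidic residues in place of its C-terminal serines, so no group here shows SMAD3 binding in its absence. On day 3, OCT4 was precipitated from cells given dox (Dox+, n = 3), and SMAD3 from Dox+ cells (n = 3) and from cells without dox (Dox-, n = 3). The labels give the dose as 1 µg/ml, but the study's methods name a lower one for its reprogramming cultures. Input DNA was taken from Dox+ (n = 2) and Dox- (n = 2) cells, which makes 13 samples. The labels do not say whether replicates were separate cultures, so p-values measure only the spread between these samples, and the cell type cannot be checked against marker expression in ChIP data.

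TET enzymes oxidize methylated cytosine in DNA stepwise to hydroxymethyl-, formyl- and carboxylcytosine. TDG cuts out the formyl and carboxyl forms, and base excision repair then puts back unmodified cytosine, so the enzymes together remove DNA methylation without replication. TET1 and TET3 have full-length forms with a CXXC domain that binds unmethylated CpG-rich DNA, TET2 lacks this domain, and cells without TET or TDG activity are known to be poor at the switch from fibroblast to epithelial state that opens reprogramming.

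Sequences from several sites at these genes are printed as examples. The first pair are the windows of 125 bp on each side of the summits of the merged OCT4 peaks in introns of Tet2 (chr3:133524616-133524866) and Tet3 (chr6:83395225-83395475), read from the + strand of GRCm38. Capitals mark any match on either strand to the octamer ATGCAAAT, the usual site of OCT4, with up to 1 mismatch, or to CATTGT or CTTTGT, forms of the SOX site.
Tet2 OCT4 summit: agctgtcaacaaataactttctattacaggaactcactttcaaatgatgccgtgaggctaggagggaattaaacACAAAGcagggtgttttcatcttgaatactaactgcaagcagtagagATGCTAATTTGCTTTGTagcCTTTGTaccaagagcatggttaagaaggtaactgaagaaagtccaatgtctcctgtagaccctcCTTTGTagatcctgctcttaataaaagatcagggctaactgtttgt
Tet3 OCT4 summit: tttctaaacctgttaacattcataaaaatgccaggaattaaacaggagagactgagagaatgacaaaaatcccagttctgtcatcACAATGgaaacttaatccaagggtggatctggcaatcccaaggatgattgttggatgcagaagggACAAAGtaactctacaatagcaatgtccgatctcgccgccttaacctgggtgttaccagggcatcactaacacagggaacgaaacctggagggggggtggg

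The second pair contrast a SMAD3 site inside an intron of Tet3 with the bases just before the first annotated Tdg exon. The Tet3 site is listed with a higher group mean in Dox+ than in Dox- cells (center of site 4 below, chr6:83443178-83443428, + strand). The Tdg bases (chr10:82629588-82629827, + strand) are the part before that exon of the RefSeq promoter of GRCm38.p6, which runs to 82629887. SMAD3 peaks were called on these Tdg bases with and without dox. Here capitals mark CpG dinucleotides, the substrate positions of DNA methylation.
Tet3 site 4 center: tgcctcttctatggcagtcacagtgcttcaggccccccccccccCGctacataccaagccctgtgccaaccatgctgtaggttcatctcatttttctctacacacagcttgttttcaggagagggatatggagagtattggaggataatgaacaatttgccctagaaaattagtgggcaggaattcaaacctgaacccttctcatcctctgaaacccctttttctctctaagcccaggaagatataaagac
Tdg promoter: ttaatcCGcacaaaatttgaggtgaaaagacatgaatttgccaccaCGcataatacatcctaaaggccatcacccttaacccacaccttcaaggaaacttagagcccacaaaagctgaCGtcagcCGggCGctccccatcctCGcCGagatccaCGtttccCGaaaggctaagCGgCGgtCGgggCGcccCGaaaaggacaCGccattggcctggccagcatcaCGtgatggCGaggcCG

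The Tet2 window holds no exact octamer but 2 overlapping octamers with 1 mismatch, ATGCTAAT on the + strand and AAGCAAAT on the - strand, which start 4 bp before and 2 bp after the summit. It also holds 4 copies of CTTTGT, 1 of which begins 7 bp after the summit and shares bases with the second octamer. In the Tet3 window the nearest octamer has 2 mismatches, and the SOX forms occur once each, CATTGT 40 bp before and CTTTGT 25 bp after the summit. Of all 2083 merged OCT4 summits, 7.2% had an exact octamer in a window of this size, 58% an octamer with up to 1 mismatch, 33.1% CATTGT and 40.5% CTTTGT. The mismatched octamer and CTTTGT were searched after the Tet2 sequence had been seen. None of the KLF site GGGTGTGG, the AP-1 site TGANTCA, the SMAD half-site CAGAC and the SMAD palindrome GTCTAGAC matched on either strand of the 4 windows, while GGGTGTGG was found at 6.53%, TGANTCA at 12.7% and GTCTAGAC at 0.144% of the OCT4 summits. In windows of this size, 36.5% of the OCT4 summits, 44.3% of the listed SMAD3 sites higher in Dox+ and 42.2% of RefSeq promoters had CAGAC. The CpG dinucleotide occurs once in the Tet2 window and 4 times in the Tet3 OCT4 window. It occurs once at the center of Tet3 site 4 and 18 times in the printed part of the Tdg promoter.

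The depth of the lists limits what can be said at any single gene. SMAD3 replicate lists held 420, 23981 and 10374 peaks in Dox+ and 1656, 18588 and 4038 in Dox-, and the merged lists, called on pooled replicates, 12576 and 11512. OCT4 lists held 1191, 1131 and 103 peaks in the replicates and 2083 in the merged list. Mean genome coverage by pooled fragments was 0.49 (OCT4), 0.599 (SMAD3 Dox+) and 0.455 (SMAD3 Dox-), which amounts to few fragments at any site.

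Across all lists, 39 peaks fell in the 4 windows, 12 of them merged and 27 from single replicates, and joining overlapping peaks gave 13 sites. SMAD3 peaks lay on transcript starts of Tet2 and Tet3, and on or next to that of Tdg, both with and without dox, whereas OCT4 was found only inside introns of Tet2 and Tet3. A merged OCT4 peak lay at 2 of the 4 genes, against 4.87% of all protein-coding genes and 10.8% of those with windows of 100 to 130 kb, the size range of the 3 Tet genes (124, 101 and 117 kb for Tet1, Tet2 and Tet3). The study had displayed the Tet2 locus, and no OCT4 replicate list had the Tet3 peak, so this count is a description only. A merged SMAD3 peak lay at 3 of the 4 genes in Dox+, where 52.5% of protein-coding genes had one, and at all 4 in Dox-, where 47.9% had one, so presence of a SMAD3 peak is common to many genes. The list of SMAD3 Dox+ replicate 1 had no peak at any of the 4 genes.

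**Figure D1:**
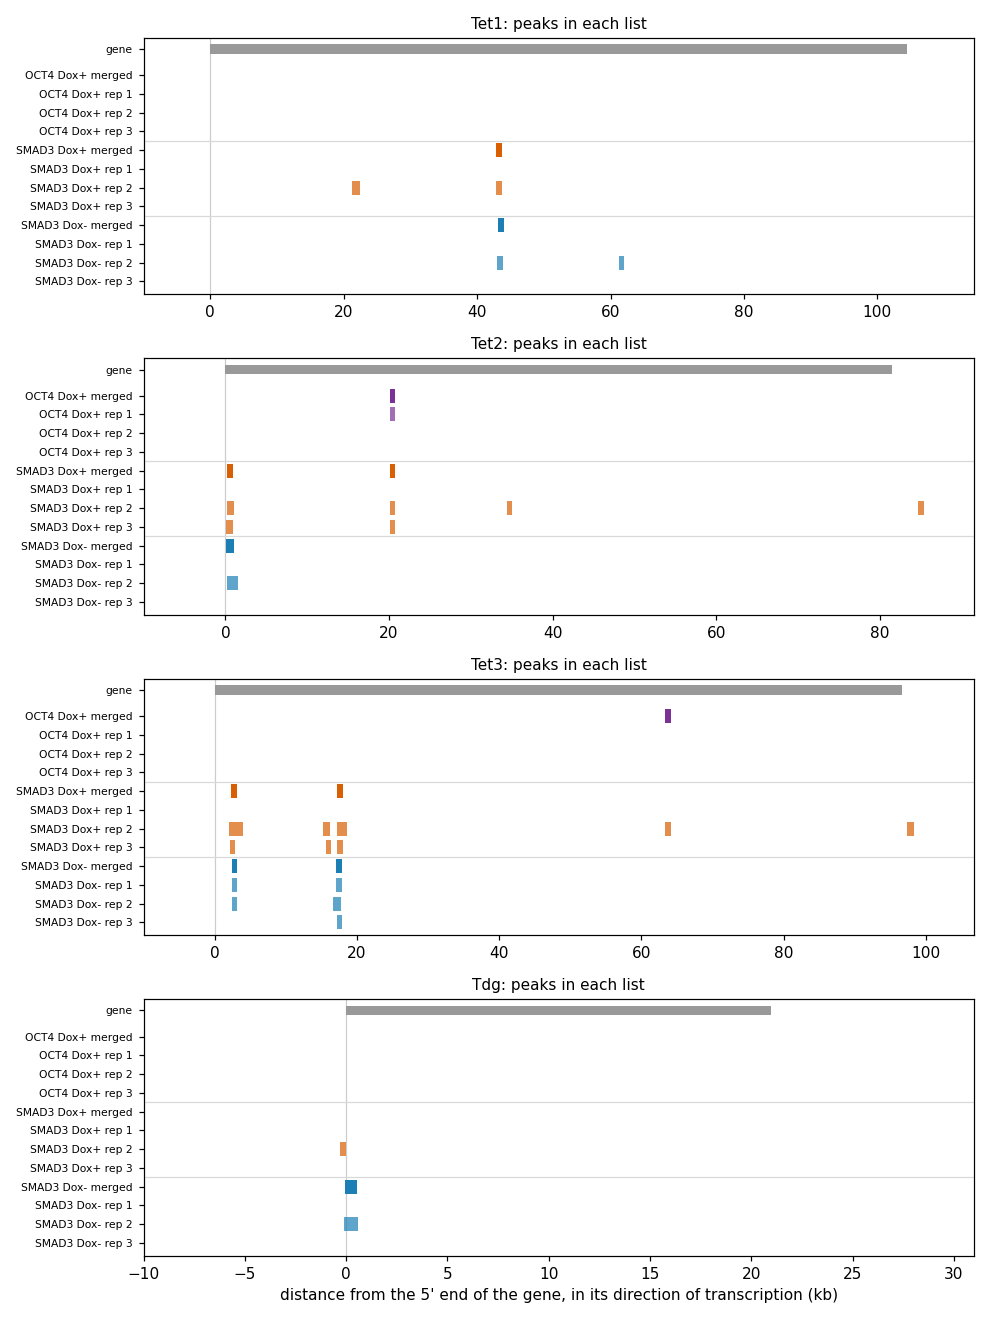
Position of every peak at Tet1, Tet2, Tet3 and Tdg, as the distance from the 5′ end of the gene in its direction of transcription (kb), with a row for each merged and replicate (rep) list and the gene span in grey. Narrow peaks are widened to a fixed minimum so that they can be seen. The Tet2 and Tet3 OCT4 peaks lie inside the genes, and the row of SMAD3 Dox+ replicate 1 is empty in all 4 panels.

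Tet2, the member with the clearest OCT4 peak, spans chr3:133463679-133545139 on the - strand. The study itself displayed this locus from these samples, so its values describe the locus and are not independent support. The merged OCT4 peak (chr3:133524608-133524821) lies in an intron, 19572 bp from the nearest annotated start. Its fold enrichment over input was 5.85 and its −log10 q-value 8.34, which ranks it 1188th by fold and 955th by q-value of 2083. OCT4 replicate 1 had a peak there with a fold of 5.74, while the lists of replicates 2 and 3 had none. The Tet2 OCT4 peak is thus a middling one that rests on a single replicate list.

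SMAD3 was found on the same bases of Tet2 in Dox+ cells (site 3, chr3:133524519-133524918). Its fold was 2.41 in the merged list, 2.1 in replicate 2 and 2.05 in replicate 3, and replicate 1 and every Dox- list had no peak. The −log10 q-values were 2.48 merged, 1.42 in replicate 2 and 0.63 in replicate 3. The last ranks 9727th of 10374 in its list, so the replicate 3 call is weak. The authors' mean log2 concentration of normalized reads at this Tet2 site reached 3.32 with dox against 0.90 without it, which is 2.41 higher or 5.33-fold. The site is among the 1176 that the deposited table of differential binding lists as higher in Dox+, at rank 395 by this difference, with a median of 2.02 over the 1176. In the separate table of OCT4 against SMAD3 in Dox+ cells the site is listed as higher for OCT4, with group means of 4.96 for OCT4 and 2.48 for SMAD3, a difference of 2.48 that ranks 856th of 1349. The SMAD3 Dox+ mean differs between the tables, which were normalized separately.

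At the Tet2 promoter (site 4, chr3:133543581-133545093, over the starts of 4 transcripts), SMAD3 was called in both conditions. The Dox+ folds were 1.79 in the merged list, 2.01 in replicate 2 and 1.96 in replicate 3. The Dox- folds were 2.68 merged and 3.82 in replicate 2, with no peak in replicates 1 and 3. The merged −log10 q-values were 0.869 in Dox+ and 2.1 in Dox-. The folds were lower with dox than without in the lists that had a peak, and the site was not listed as different. A further 2 Tet2 sites, 1 in an intron (chr3:133510277-133510553) and 1 past the 3′ end (chr3:133459969-133460176), came from Dox+ replicate 2 alone, with folds of 2.2 and 1.86.

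Tet3, the TET gene known for oxidizing the paternal genome of the zygote, spans chr6:83362373-83459084 on the - strand and had 5 sites. Its merged OCT4 peak (site 2, chr6:83395189-83395434, in an intron) was weak, with a fold of 3.85 and a −log10 q-value of 3.55, at rank 2016 by fold and 1921 by q-value of 2083. None of the 3 OCT4 replicate lists had it. SMAD3 Dox+ replicate 2 had a peak there with a fold of 2.56, and no other SMAD3 list, merged or single, did. The nearest annotated start, 5791 bp away, is that of the microRNA gene Mir6374 inside the Tet3 window.

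The gained SMAD3 site of Tet3 lay elsewhere in the gene. Site 4 (chr6:83442775-83443832) is in a Tet3 intron that also lies within the noncoding gene B230319C09Rik, and had folds of 2.11 in Dox+ replicate 2 and 2.84 in replicate 3. The −log10 q-values of these peaks were 0.873 in replicate 2 and 1.31 in replicate 3. Site 4 was in neither merged list and in no Dox- list. The authors' mean log2 concentration was 3.65 in Dox+ and 1.09 in Dox-, a difference of 2.56 or 5.89-fold, at rank 341 of the 1176 sites listed as higher in Dox+. No OCT4 peak overlapped it.

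Only 367 bp separate this site from site 3 (chr6:83440454-83442407), which covers starts of 3 Tet3 transcripts and 3 of B230319C09Rik, so SMAD3 there cannot be assigned to either gene. The Dox+ folds at site 3 were 2.37 merged, 3 in replicate 2 and 3.35 in replicate 3. The Dox- folds were 2.34 merged and 2.42, 2.34 and 2.41 in replicates 1, 2 and 3, so that all 3 Dox- lists had it. Site 5 (chr6:83455175-83457084), at the start of a coding Tet3 transcript, had Dox+ folds of 1.87 merged, 2.5 in replicate 2 and 1.92 in replicate 3, and Dox- folds of 2.77 merged, 3.9 in replicate 1 and 3.19 in replicate 2. The merged −log10 q-values at site 5 were 0.768 in Dox+ and 2.23 in Dox-. Neither site 3 nor site 5 was listed as different. Site 1 (chr6:83360774-83361774), past the 3′ end toward Bola3, was called in Dox+ replicate 2 alone with a fold of 2.25.

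Tet1, the main TET gene of embryonic stem cells together with Tet2, spans chr10:62804570-62908996 on the - strand and had no OCT4 peak in any list. Its shared SMAD3 site (site 2, chr10:62865136-62865970) covers the start of a noncoding Tet1 transcript. The Dox+ folds were 3.58 merged and 2.3 in replicate 2, and the Dox- folds 2.82 merged and 2.45 in replicate 2. The merged Dox+ peak (chr10:62865450-62865929) and the merged Dox- peak (chr10:62865180-62865644) shared 195 bp, and their centers were 277 bp apart. At the starts of a pair of coding Tet1 transcripts (site 3, chr10:62886488-62887721), Dox+ replicate 2 alone had a peak, with a fold of 1.12 that ranks 23933rd of 23981. Site 1, in an intron (chr10:62847281-62847474), was called in Dox- replicate 2 alone with a fold of 2.45.

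Tdg, which encodes the glycosylase downstream of the TET enzymes, spans chr10:82629828-82650799 on the + strand, has a window of 41 kb and had no OCT4 peak in any list. Its only site was the promoter (chr10:82629543-82630422). In Dox+ it was called in replicate 2 alone, with a fold of 2.28 and a peak (chr10:82629543-82629809) that ends before the first annotated exon. In Dox- the folds were 1.58 merged and 2.96 in replicate 2, and both peaks crossed the transcript start. The −log10 q-value was 0.601 for the merged Dox- peak, at rank 11346 of 11512. It was 1.86 in Dox- replicate 2 and 1.66 in Dox+ replicate 2. No listed differential site lay in the Tdg window.

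**Figure D2:**
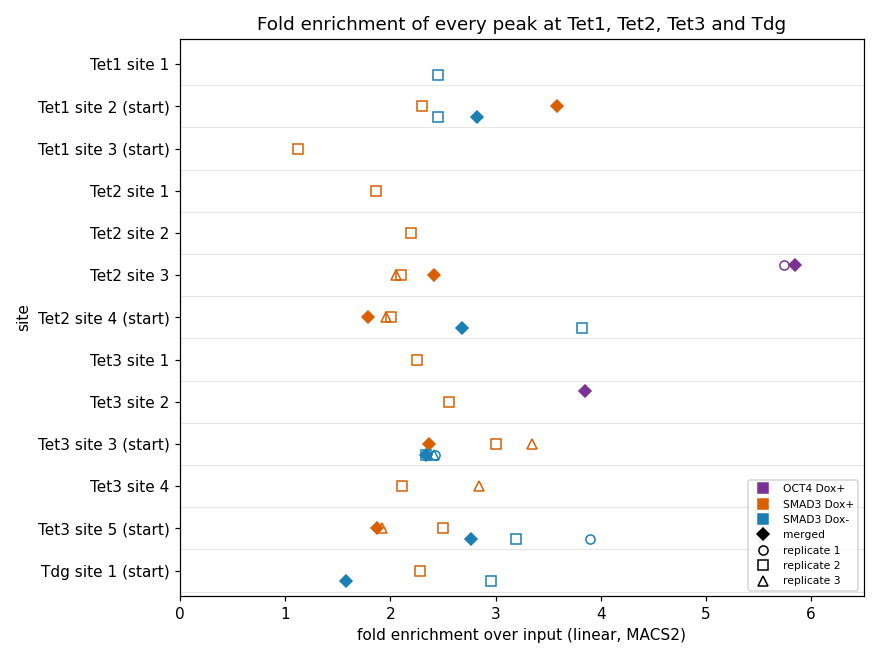
Fold enrichment over input of each peak (x axis, linear) at the 13 sites (y axis, numbered along the chromosome within each gene, with sites that contain a transcript start marked), for the merged (filled) and replicate (open) lists. Folds of SMAD3 peaks ran from 1.12 to 3.9, and the OCT4 peaks of Tet2 stood at 5.85 and 5.74.

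The sites were grouped by whether they contain a transcript start. The matching shares over all SMAD3 sites were not counted, so the numbers describe these sites only and are not a trait of the genes. Of the 6 sites that contain a transcript start, 6 had a SMAD3 peak in a Dox+ replicate list and 5 in a Dox- one, although the Dox+ peaks of Tet1 site 2 and Tdg stopped short of the start itself. Of the 7 sites without a start, 6 had a Dox+ replicate peak and none of these had a Dox- one, while 1, in Tet1, was called in Dox- only. Both classes leaned on the longest list, since replicate 2 alone gave 3 of the 6 Dox+ sites with a start and 4 of the 6 without. Without that list 3 sites with a start and 2 without one, Tet2 site 3 and Tet3 site 4, had a Dox+ peak. The latter are also the sites listed as higher in Dox+. Without Dox- replicate 2, the second longest list, 2 start sites and no other site kept a Dox- peak.

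Base composition differed between the same classes. The classes are defined by transcript starts, and sites elsewhere in the genome were not split this way. The difference is thus not read as a trait of these genes or of SMAD3 binding. The observed over expected CpG ratio, which sets the CpG count against that due from the C and G content, was 0.453 to 0.952 at the sites with a start and 0 to 0.28 at those without. GC content was 53.4% to 69.7% and 39.4% to 52.8%, respectively. Medians over the merged lists were 0.736 for SMAD3 Dox+, 0.717 for SMAD3 Dox- and 0.145 for OCT4 peaks. The OCT4 site of Tet2 stood at 0.114 and that of Tet3 at 0.268, and Tet3 site 4, with no OCT4 peak, at 0.154.

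Regions tested for a dox effect were rebuilt as joined replicate peaks present in at least 2 of the 6 SMAD3 lists, which gave 13217 regions and contained all 2080 listed sites. Of the 7 such regions at the members, 2 were listed as higher in Dox+ and 0 as lower, against 8.9% and 6.84% of all tested regions. By gene, 2 of the 4 had a site listed as higher, against 6.63% of protein-coding genes and 8.27% of those with windows of 100 to 130 kb, and 0 had one listed as lower, against 3.85%. Both regions listed as higher were in 2 Dox+ lists and in no Dox- list, so they entered the tested set only through the group in which they are high, and these counts do not support a direction. They lay away from transcript starts and were the only tested regions at the members that did so.

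Pooled signal, which does not depend on a SMAD3 peak call, was compared at the OCT4 loci. Signal is input-subtracted coverage scaled to a mean genome coverage of 1 and its mean was taken across the middle 200 bp of each merged OCT4 peak. At Tet2 it was 24.2 for OCT4, 20 for SMAD3 Dox+ and 1.32 for SMAD3 Dox-. At Tet3 it was 16.4 for OCT4, 12.6 for SMAD3 Dox+ and -0.161 for SMAD3 Dox-. On this scale, SMAD3 signal at both loci was somewhat below that of OCT4 with dox, and there was little without it. At Tet2 the authors' group means put OCT4 further above SMAD3 with dox, by 2.48 on the log2 scale. The measures were normalized differently and the antibodies differ, so levels of OCT4 and SMAD3 cannot be set against each other. Medians over the 2083 loci were 21.6 for OCT4, 7.24 for SMAD3 Dox+ and 0.028 for SMAD3 Dox-. These loci are called summits, and some peaks with several summits are counted more than once here and in the percentiles below. Each value is 1 pooled library, so these differences have no replicate check and no test.

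The Tet2 and Tet3 loci stood higher among the OCT4 loci for SMAD3 than for OCT4. The Dox+ minus Dox- difference of 18.7 at Tet2 was at percentile 96 and that of 12.8 at Tet3 at percentile 83.4 of all loci. In OCT4 signal the same loci were at percentiles 64.7 and 13.3. The ratio of SMAD3 Dox+ to OCT4 signal was 0.829 at Tet2 and 0.771 at Tet3, at percentiles 95.7 and 94.1, with a median of 0.316. At Tet2 the OCT4 summit lay on a merged SMAD3 Dox+ peak, as 25.3% of OCT4 summits did, and those of both genes lay on a peak of SMAD3 Dox+ replicate 2, as 52.2% did.

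**Figure D3:**
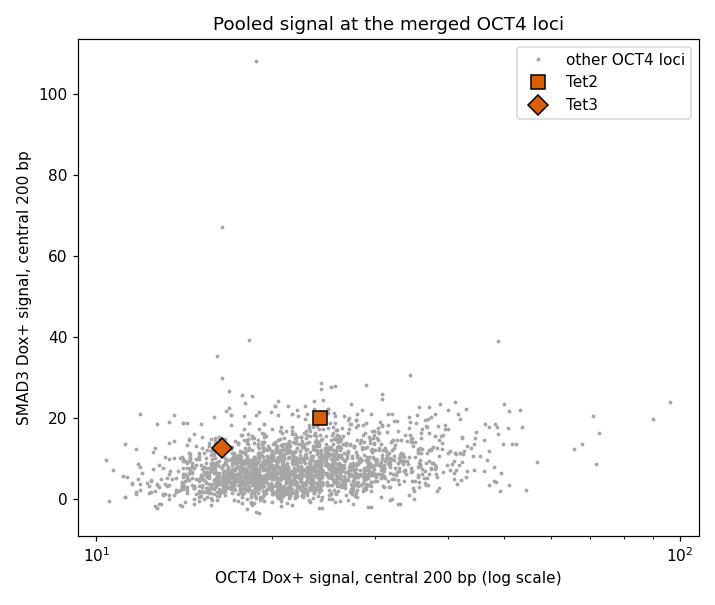
SMAD3 Dox+ against OCT4 pooled signal in the central 200 bp (OCT4 on a log axis) at the 2083 merged OCT4 loci. Each point is 1 called summit, and some peaks with several summits repeat the same values. Tet2 lies at 24.2 and 20 and Tet3 at 16.4 and 12.6, in the upper part of the SMAD3 range for their OCT4 signal.

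The maxima of OCT4 and SMAD3 Dox+ lay on the same bases at each locus. In the central 200 bp each was a plateau of 4 tied bins of 10 bp, with bin centers from -55 to -25 bp of the peak center at Tet2 and from 45 to 75 bp at Tet3, so the agreement is no finer than 40 bp. Taking the first of any tied bins, both maxima were in the same bin at 27.5% of all OCT4 loci. The OCT4 and SMAD3 Dox+ signals subtract the same pooled Dox+ input, so their shapes are not independent. The highest Tet2 bins, each taken at its own position, were 34.7 for OCT4, 26.7 for SMAD3 Dox+ and 4.39 for SMAD3 Dox-. One fragment was worth 2.04, 1.67 and 2.2 units in these libraries, so the bins stand for 17, 16 and 2 fragments net of input, with 95% Poisson intervals of 9.9 to 27.2, 9.15 to 26 and 0.242 to 7.22. At Tet3 the highest bins of 23.7, 20.1 and 6.59 stand for about 12, 12 and 3 fragments, with intervals of 6.2 to 21, 6.2 to 21 and 0.619 to 8.77. These intervals treat each rounded net value as a Poisson count, which it is not where input was subtracted. They leave out counting error of the input and the spread between replicates. Each bin is also a maximum picked from the central 200 bp, so overlap of the intervals is a description and not a test. The SMAD3 intervals of Dox+ and Dox- did not overlap at Tet2 and overlapped in part at Tet3. A second OCT4 maximum of Tet2, 27.7 at 165 bp after the center, had a SMAD3 Dox+ signal of 10.1.

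**Figure D4:**
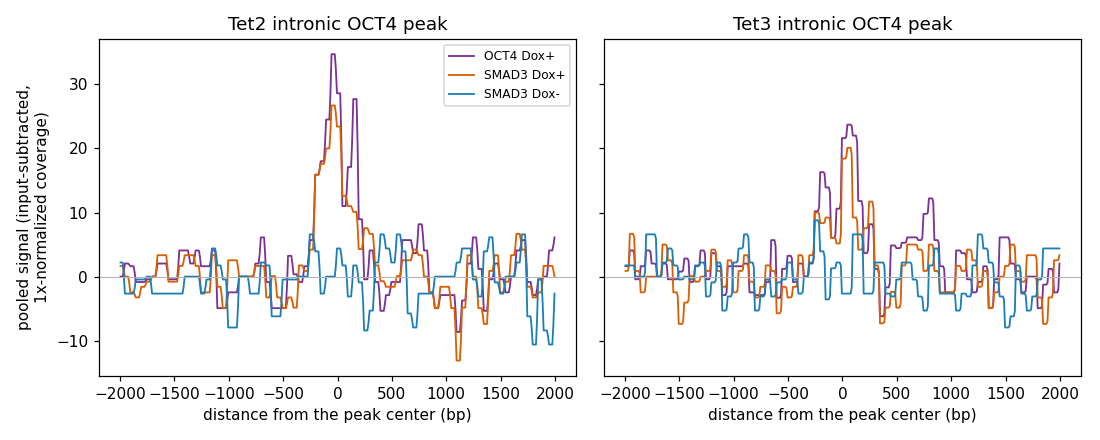
Pooled signal (y axis, input-subtracted 1x-normalized coverage) by distance from the center of the Tet2 (left) and Tet3 (right) OCT4 peaks (x axis, bp) for OCT4 Dox+, SMAD3 Dox+ and SMAD3 Dox-. OCT4 and SMAD3 Dox+ reach their highest values, 34.7 and 26.7 at Tet2 and 23.7 and 20.1 at Tet3, at the same distance. SMAD3 Dox- varies between -10.6 and 6.59 at Tet2 and between -7.94 and 8.78 at Tet3 over the plotted range, and reaches 4.39 and 6.59 in the central 200 bp.

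Whether dox changed the length of DNA under SMAD3 peaks could be asked for each replicate list. In the Tet2 window the Dox+ lists covered 0, 1779 and 1048 bases and the Dox- lists 0, 1311 and 0 bases for replicates 1, 2 and 3. On the scale of log2(covered bases + 100) the Dox+ lists averaged 9.23 ± 2.27 (SD, n = 3) and the Dox- lists 7.92 ± 2.20 (SD, n = 3), a difference of 1.31 (exact two-sided permutation test, p = 0.7). In the Tet3 window the values were 0, 5421 and 2078 bases in Dox+ and 575, 1648 and 330 in Dox-, a log2 difference of 0.41 (exact permutation test, p = 0.9). Dox+ replicate 1 was thus below every Dox- list and the other Dox+ lists above them.

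In the Tet1 window the lists covered 0, 1755 and 0 bases in Dox+ and 0, 1029 and 0 in Dox-, a log2 difference of 0.24 (exact permutation test, p = 1). In the Tdg window they covered 0, 267 and 0 bases in Dox+ and 0, 690 and 0 in Dox-, a log2 difference of -0.37 (exact permutation test, p = 1). The groups overlapped at all 4 genes, and none of the differences exceeded the spread between replicates. With 3 against 3 lists p cannot go below 0.1. More covered bases in every Dox+ than in every Dox- list was seen at 0 of the 4 genes and at 0.096% of protein-coding genes. The median log2 difference over the 14661 genes with a SMAD3 peak in any replicate list was 0.61. Dox+ replicates 2 and 3 and Dox- replicate 2 had the longest lists. With every list cut to its 420 strongest peaks the log2 differences were 0.00 at Tet1, Tet2 and Tdg and -0.57 at Tet3, and with bases scaled to the total each list covers (log2 with a pseudocount of 1) they were 0.14, 2.41, -2.45 and -0.55 at Tet1, Tet2, Tet3 and Tdg.

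**Figure D5:**
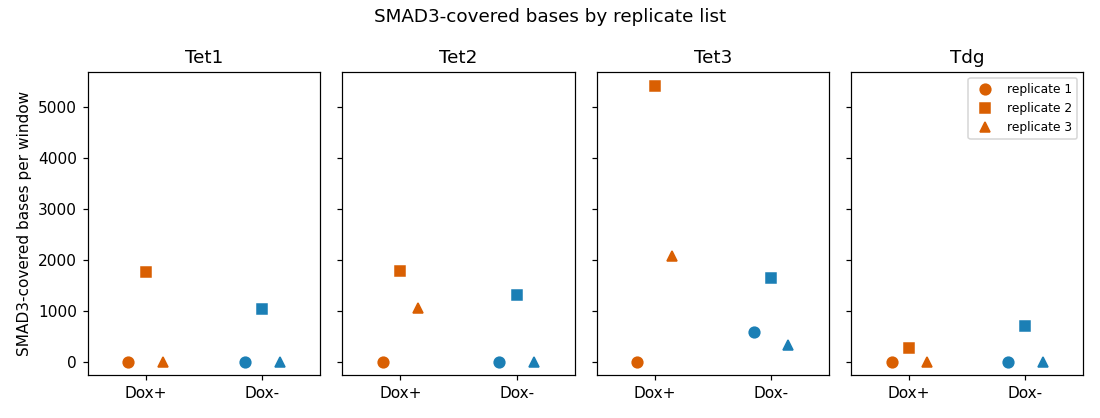
Bases covered by SMAD3 peaks in the window of each gene (y axis) in the 3 Dox+ and 3 Dox- replicate lists, 1 point per list with the marker giving the replicate number. Values range from 0 to 5421 (Tet3, Dox+ replicate 2), and the groups overlap at every gene.

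Other genes of the pathway were taken from a list of 26. Of the 6 DNA methyltransferases and partners, 0 had a merged OCT4 peak, 4 a merged SMAD3 Dox+ peak and 6 a Dox- one. Of the 11 glycosylase and base excision repair genes, 0, 8 and 7 had them. Of the 9 cofactors, partners and regulators of TET enzymes, 2, 7 and 8 had them. Over the list this came to 2 genes with OCT4, 19 with SMAD3 Dox+ and 21 with SMAD3 Dox- peaks, where 4.87%, 52.5% and 47.9% of protein-coding genes had them. A site higher in Dox+ was at 1 of the 26 (6.63% of protein-coding genes) and a site lower in Dox+ at 2 (3.85%).

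Both pathway genes with an OCT4 peak encode isocitrate dehydrogenases, which make the alpha-ketoglutarate that TET enzymes consume. Idh3a, also an isocitrate dehydrogenase gene of the list, had no merged OCT4 peak and no listed site. The shared family is thus not read as a result. Idh2 had an OCT4 peak at chr7:80111644-80111838 with a fold of 6.24, in 1 replicate list, and a listed SMAD3 site at chr7:80110907-80111783 with authors' mean log2 concentrations of 3.49 in Dox+ and 0.90 in Dox-, a difference of 2.59. Idh1 had an OCT4 peak at chr1:65172381-65172598 with a fold of 3.58, in 1 replicate list, and no listed site. Neither summit lay on a merged SMAD3 Dox+ peak, although the Idh2 OCT4 peak overlaps the listed SMAD3 site of Idh2 in part. The sites lower in Dox+ were at Gadd45g, a stress gene linked to DNA demethylation, with 2.85 in Dox+ and 4.10 in Dox-, and at Dnmt3a, a de novo DNA methyltransferase, with 4.34 and 5.36.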

How the data were processed

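OCT4 and SMAD3 ChIP-seq and input libraries were grouped by antibody and dox as the labels give them. Per the labels and methods, the authors trimmed reads (Trimmomatic 0.36), aligned them to mm10 with Bowtie2, removed duplicates (Picard 2.3.0), reads under a mapping quality of 40 and blacklisted regions, and called peaks with MACS2 2.1.0 against pooled inputs, per replicate and on pooled replicates (merged lists), as narrow peaks for OCT4 (q of 0.01) and broad peaks for SMAD3 (cutoff 0.1). The deposited peak lists give each peak's fold enrichment as a linear ratio, with a −log10 q-value that for broad peaks is a mean over the region and was below 1 in 15.4% of merged Dox+ and 21.5% of merged Dox- peaks. The deposited matrices hold a signed score, pooled coverage minus input scaled by the authors to a genome coverage of 1 (deepTools 2.2.3). The authors' DiffBind 1.16.3 tables list sites with FDR ≤ 0.1 and a log2 fold of 1 or more either way. Their log2 group concentrations were used, and their columns of the authors' comparisons (folds, p-values and FDR) were not.

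Genes were taken from GENCODE vM21, sequences from the GRCm38 genome and the RefSeq promoter table (4 of 4 genes matched). No read counts per replicate were used here, so covered bases of each list were compared on log2(bases + 100) with exact permutation tests. Fragment units were read from repeated values of flat 10 bp bins. Motifs were searched on both strands. The members, gene list and tests were chosen with earlier results of these data known. All members, and pathway genes with a merged OCT4 peak or a listed site, were named. Of the neighbors, Bola3, Mir6374 and B230319C09Rik were named above. The others were Gm48353 and Gm26479 (Tet1), Gm42567 (Tet2), 5430434F05Rik (Tet3), and the protein-coding 1190007I07Rik and Glt8d2 (Tdg). Alternatives covered flanks, filters, list length, pseudocounts, left-out lists and replicate numbers as pairs. Steps were tested on simulated data, with Python 3.11.15, numpy 2.4.6, scipy 1.17.1, pysam 0.24.0 and matplotlib 3.10.9.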

Additional observations from a re-analysis of the deposited data

How the results depend on the processing

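The covered-base differences moved with single lists. Leaving out each list in turn gave log2 differences of -1.17 to 1.40 at Tet1, 0.49 to 2.60 at Tet2, -0.77 to 2.12 at Tet3 and -0.99 to 0.63 at Tdg, with signs lost at Tet1 without Dox+ replicate 2 or Dox- replicate 1 or 3, at Tet3 without Dox+ replicate 2 or 3 or Dox- replicate 3, and at Tdg without Dox- replicate 2. Leaving out replicate 1 of both groups, chosen after seeing the data, turned none. With peaks of a −log10 q-value of at least 2 the differences were 0.00 at Tet1, -1.27 at Tet2, 1.26 at Tet3 and 0.00 at Tdg. With every list cut to its 420 strongest peaks they were 0.00 at Tet1, Tet2 and Tdg and -0.57 at Tet3. Tet3 also turned with a pseudocount of 10 (-0.51) and with covered bases scaled to the total of each list (-2.45), settings that gave 2.39 and 2.41 at Tet2, and the second 0.14 at Tet1. A flank of 50 kb gave 0.56 at Tet1, 0.63 at Tet3 and -1.48 at Tdg, and no flank -0.93 at Tdg. Over all these settings p was 0.2 to 1 in exact permutation tests. Deviations of same-numbered lists correlated at 0.38, 0.17 and -0.05 for replicates 1, 2 and 3 over 14661 genes, and not every list correlated best with its own number, so the numbers were not read as pairs; a sign-flip test within the replicate block left the differences at 0.24, 1.31, 0.41 and -0.37 for Tet1, Tet2, Tet3 and Tdg, with exact p of 1, 0.5, 1 and 1 (smallest possible 0.25). Asking for a merged peak in at least 2 replicate lists left 0 genes with OCT4 and 1 with SMAD3 Dox-. The pooled Dox+ minus Dox- signal was 20.6, 6.97 and 22.3 at Tet2 and 14.2, 4.2 and 13.5 at Tet3 over the central 100 bp, the central 1000 bp and the highest bin. A flank of 50 kb added 1 site lower in Dox+, beside Tdg (log2 concentrations of 3.05 in Dox+ and 4.82 in Dox-). The other counts of peaks, replicate support and listed sites stayed within 1.5 times under their alternatives. At these depths a missing peak means only that none was called, and the OCT4 sites of Tet2 and Tet3 rest on 1 and 0 replicate lists.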
